A study of Mus musculus with 8 samples.

Results

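The genes described here encode the MHC class I antigen presentation route in mouse blood. They were the rows of the deposited count table whose symbol was H2-K1, H2-D1, H2-T23, H2-Q7, B2m, Tap1, Tap2, Tapbp or Nlrc5, which gave 9 of 21878 symbols. All 9 passed the filter on low counts (at least 10 counts in at least 4 samples), as did 11718 symbols in all. RNA was sequenced from flash-frozen peripheral blood of female wild-type C57BL/6 mice aged 6 to 8 weeks, giving 4 control libraries and 4 stress libraries. Stress group mice were held for 6 hours in a ventilated conical tube. Control mice were littermates left in their cage, and both groups went without food and water over that time, so the contrast is restraint on top of fasting in either group. The study asked how acute stress acts on the transcripts of blood cells. The model covers 1 sex, 1 strain and 1 time point, and the labels do not say whether each library came from a separate mouse. The study gives its n per group as the number of libraries.

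MHC class I molecules hold short peptides from inside the cell at its surface, where CD8 T cells and natural killer cell receptors read them. A heavy chain (the polymorphic H2-K1 and H2-D1 in this strain, or the non-classical H2-T23 and H2-Q7) pairs with the invariant light chain beta-2 microglobulin, encoded by B2m. Peptides enter the endoplasmic reticulum through the transporter formed by Tap1 and Tap2, and tapasin, encoded by Tapbp, bridges that transporter to empty class I molecules. Nlrc5 is the class I transactivator, which acts with the RFX, CREB/ATF and NF-Y factors at the conserved S, X and Y boxes of class I promoters. Nucleated blood cells carry class I molecules, with lymphocytes among the highest.

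In GENCODE M21 (GRCm38, the sequence of mm10), 7 of the 9 genes lay on chromosome 17, from Tapbp at 17:33915899-33929292 to H2-T23 at 17:36029773-36032855. Between these lay H2-K1 at 17:33996017-34000347, Tap1 at 17:34187553-34197225, Tap2 at 17:34203527-34216321, H2-D1 at 17:35262730-35267499 and H2-Q7 at 17:35439155-35443773. B2m lay at 2:122147686-122153083 and Nlrc5 at 8:94434356-94527272. All were annotated as protein coding. The start of Tap1 overlapped that of Psmb9 (17:34181987-34187764), which runs on the opposite strand. The strand setting of the counting is not given in the sources used here, so reads from that overlap cannot be assigned to one of the pair.

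The promoter stretches of 5 members are printed because they carry the letters through which class I genes are known to be controlled together. They come from RefSeq (GRCm38.p6), from windows of 250 bases before to 50 bases after the annotated start. Each is written 5′ to 3′ on the strand of the gene and runs from 20 bases before the first match to 20 bases after the last, or to the end of the window. Capitals mark matches on either strand to GGGGATTCCC (a kappaB element, its letters read from the H2-K1 window), TTTCNNTTC (a core of the interferon response element), TGACG (a CREB-type core, as in the X2 box) and ATTGG (the Y box core, bound by NF-Y; CCAAT is the same letters on the other strand). After these exact letters had been searched, wider forms were added, the general NF-kappaB consensus and TTTCNNTTTC (a longer interferon element), and capitals mark them where they overlap none of the exact matches. No marked match overlaps another. The stretch of H2-K1 is chr17:34000315-34000478 (minus strand), that of H2-D1 chr17:35262903-35263065 (plus strand), that of H2-Q7 chr17:35439002-35439163 (plus strand), that of B2m chr2:122147528-122147736 (plus strand) and that of H2-T23 chr17:36032729-36032845 (minus strand).
H2-K1: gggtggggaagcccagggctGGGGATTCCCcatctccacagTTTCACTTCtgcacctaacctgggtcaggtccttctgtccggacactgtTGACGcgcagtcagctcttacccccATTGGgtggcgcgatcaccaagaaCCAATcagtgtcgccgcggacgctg
H2-D1: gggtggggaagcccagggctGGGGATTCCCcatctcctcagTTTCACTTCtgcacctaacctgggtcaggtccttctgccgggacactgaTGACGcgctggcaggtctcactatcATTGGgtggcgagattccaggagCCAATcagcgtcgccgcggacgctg
H2-Q7: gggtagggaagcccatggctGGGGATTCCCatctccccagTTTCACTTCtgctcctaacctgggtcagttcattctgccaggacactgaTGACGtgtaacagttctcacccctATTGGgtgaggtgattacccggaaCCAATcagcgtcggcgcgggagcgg
B2m: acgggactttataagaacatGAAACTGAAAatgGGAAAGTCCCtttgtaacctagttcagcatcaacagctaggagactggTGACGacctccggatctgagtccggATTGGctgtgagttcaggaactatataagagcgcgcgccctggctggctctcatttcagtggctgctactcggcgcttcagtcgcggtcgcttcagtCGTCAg
H2-T23: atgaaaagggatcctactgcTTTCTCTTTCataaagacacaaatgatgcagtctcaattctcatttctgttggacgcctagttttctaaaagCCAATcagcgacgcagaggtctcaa

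H2-K1, H2-D1 and H2-Q7 held all 4 motifs in the same order. In H2-K1 the kappaB letters began 111 bases before the start, in H2-D1 171 bases and in H2-Q7 133 bases before it. The stretches of H2-K1 and H2-D1 were identical at 89.6% of aligned positions, those of H2-K1 and H2-Q7 at 82.9% and those of H2-D1 and H2-Q7 at 83.5%. The kappaB letters were in 0.107% of 32851 RefSeq promoter windows of the same length, the interferon core in 7.52%, TGACG in 20.8% and ATTGG in 37.4%. All 4 were together in 4 windows (0.0122%), which were 2 overlapping windows of H2-K1 and 1 each of H2-D1 and H2-Q7. The 4 letter strings were chosen with these sequences in view, so that count is a description. The exact kappaB and interferon letters were in no other window of the members. The B2m window held TGACG and ATTGG, with a longer interferon element and a general kappaB match upstream of them, and the H2-T23 window held ATTGG and a longer interferon element. The Tap1 window held TGACG and ATTGG and that of Tapbp ATTGG. The general kappaB consensus was in 8.46% of all windows and the longer interferon element in 3.44%. A match is letters only, not a measured site, and a missing match says nothing beyond these windows. Tap2 and Nlrc5 have no promoter printed.

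**Figure D1:**
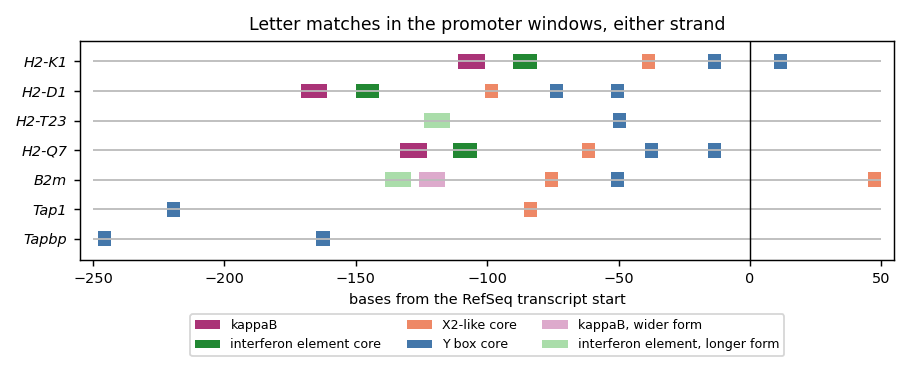
Matches to the 4 letter strings and to the 2 wider forms (pale) in the RefSeq promoter windows of 7 members, drawn to scale in bases from the annotated transcript start (vertical line). H2-K1, H2-D1 and H2-Q7 show the 4 motifs in one order at different distances from the start, and B2m shows both wider forms upstream of TGACG and ATTGG.

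The control libraries held 31471145 to 39014775 counts each, and the stress libraries 25978683 to 29655725. Haemoglobin genes took 51.9% to 63.8% of the counts in controls and 61.2% to 75.5% in stress, so 11412556 to 18774818 and 6355715 to 11009882 counts were left outside them, the fewest in stress replicate 3. TMM factors ran from 1.01 to 1.77 in controls and from 0.507 to 1.10 in stress, so the scale between libraries matters here. The values below are CPM, counts scaled to a common library size of 1000000, on TMM-scaled library sizes, on which the median gene differed by -0.02 (log2, stress minus control). On total counts alone that median was -0.82, and on total counts outside haemoglobin it was -0.43. Sums of marker genes for neutrophils (190 to 373 CPM in controls, 578 to 853 in stress), classical monocytes (307 to 416 and 674 to 1158) and platelets (1384 to 2092 and 3174 to 3902) were higher in every stress library. The B cell sum was lower in every one (1072 to 1320 and 730 to 955). The T cell sums (391 to 431 and 355 to 466), NK cell sums (64.0 to 112 and 55.7 to 123), non-classical monocyte sums (67.6 to 113 and 51.9 to 84.9) and reticulocyte sums (13115 to 36409 and 29128 to 63007) overlapped. No marker of these blood lists was at 0 in all libraries. By flow cytometry the study found fewer monocytes, lymphocytes (B and T) and NK cells in blood after this restraint, and more neutrophils. The neutrophil and B cell sums went the same way as those cell numbers, and the classical monocyte sum the opposite way. The T cell and NK cell sums overlapped where the cell numbers fell. The study does not say whether the same mice were sequenced, and the cause of these differences was not tested. From RNA of whole blood alone, fewer cells of a type and less RNA per cell cannot be told apart. The part of cell mix in the values below was not tested.

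After 6 hours of restraint the class I genes gave no common direction. The light chain B2m had the highest estimate (log2 fold change 0.58) and the transactivator Nlrc5 the lowest (-0.45), while H2-K1, Tap2 and Tapbp had estimates near 0. None of the 9 genes rose or fell at an adjusted p below 0.05 (edgeR quasi-likelihood test, Benjamini-Hochberg over all genes), where 14.1% of all tested genes did, 1223 of them rising and 432 falling. None passed the study's thresholds either (absolute log2 fold change above 1 and adjusted p below 0.01), which 1.71% of all tested genes passed. At an unadjusted p below 0.05 there were 3 members, 1 higher (B2m) and 2 lower (H2-Q7 and Nlrc5), where 31.2% of all tested genes passed in either direction. The groups did not overlap in 3 of the 9 genes, as in 21.0% of all tested genes. DESeq2 called 2 members higher (B2m, adjusted p = 0.00103, and H2-D1, adjusted p = 0.0268) and limma-voom 1 (B2m, adjusted p = 0.0358), both at 0.05. Over all genes, DESeq2 called 1524 of 12532 higher and limma-voom 1356 of 11718. The log2 fold change was above 0 in 5 members and below 0 in 4, with a median of 0.02 beside -0.02 over all tested genes.

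**Figure D2:**
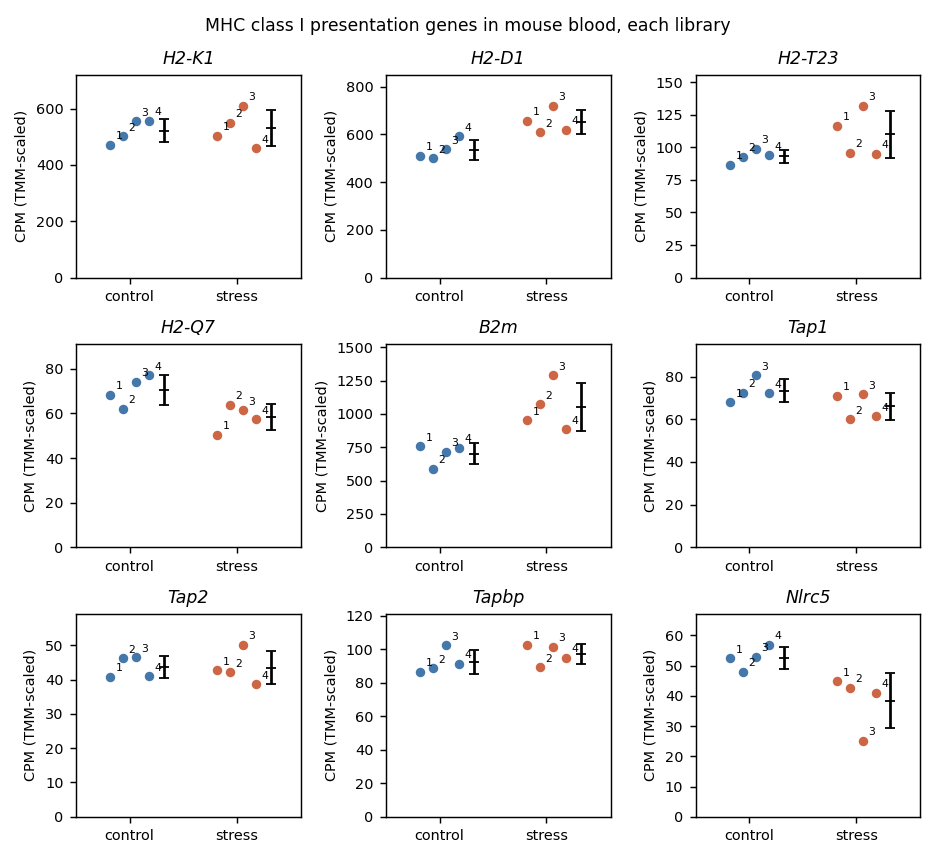
TMM-scaled CPM of the 9 genes in each library, with the replicate number beside each point and the mean with SD (n = 4) beside each group; every y axis starts at 0. The groups separate in B2m and H2-D1 (stress above) and in Nlrc5 (stress below), and they overlap in the other 6 genes.

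B2m, the light chain that every class I heavy chain needs to reach the surface, stood at 757, 591, 717 and 746 CPM in control replicates 1 to 4. In stress replicates 1 to 4 it stood at 954, 1071, 1292 and 886 CPM. All stress libraries lay above all control libraries, a pattern that 11.1% of tested genes showed in this direction. The mean was 703 ± 76.6 CPM in controls and 1051 ± 178 CPM in stress (SD, n = 4). The log2 fold change was 0.58 (SE 0.20, 95% interval 0.16 to 1.00, edgeR adjusted p = 0.0653). It was called at 0.05 without stress replicate 4, the stress library with the lowest B2m (adjusted p = 0.0476). No other library left out gave a call. Without control replicate 2, the control with the lowest B2m, the log2 fold change was 0.51 (edgeR adjusted p = 0.195). The order of the stress libraries by B2m was also their order by haemoglobin share (66.5%, 70.4%, 75.5% and 61.2% in replicates 1 to 4). The control libraries did not follow that order (61.1%, 57.2%, 51.9% and 63.8% in replicates 1 to 4). The part of the haemoglobin share in the B2m value was not tested.

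Of the classical heavy chains, H2-D1 stood at 511, 499.8, 537 and 592 CPM in control replicates 1 to 4 and at 658, 608, 721 and 619 CPM in stress replicates 1 to 4. Again no stress library lay within the control range. The means were 535 ± 41.1 and 651 ± 51.0 CPM, with a log2 fold change of 0.28 (SE 0.16, 95% interval -0.07 to 0.64, edgeR adjusted p = 0.258). H2-K1, its partner at the other end of the locus, stood at 472, 502, 556 and 557 CPM in controls and at 503, 550, 611 and 460.1 CPM in stress. Its groups overlapped fully, with stress replicate 4 the lowest and stress replicate 3 the highest library of all. The means of H2-K1 were 522 ± 41.8 and 531 ± 64.7 CPM, and the log2 fold change was 0.02 (SE 0.17, 95% interval -0.33 to 0.38, adjusted p = 0.937).

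The ratio of H2-K1 to H2-D1 within each library does not depend on the scale between libraries. It ran from 0.925 to 1.04 in controls and from 0.744 to 0.904 in stress, so it was lower in every stress library. The difference was -0.26 (log2, stress minus control, two-sided exact permutation p = 0.0286, n = 4 per group), and 0.0286 is the smallest p that 70 assignments of 4 and 4 samples allow. This ratio was chosen after the values of both genes had been seen. Of all tested genes, 25.7% had a ratio to H2-D1 that was lower without overlap, and H2-K1 is to be read beside that share.

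The non-classical heavy chains had estimates of opposite sign. H2-T23, the Qa-1 molecule that presents a class I leader peptide to CD94/NKG2A, stood at 86.7, 92.6, 99.0 and 93.7 CPM in controls and at 116, 95.8, 132 and 95.1 CPM in stress. Stress replicates 1 and 3 lay above the controls and replicates 2 and 4 within their range. H2-T23 had a log2 fold change of 0.24 (SE 0.13, 95% interval -0.04 to 0.52, edgeR adjusted p = 0.229). H2-Q7, a Qa-2 molecule, stood at 68.3, 62.2, 74.2 and 77.2 CPM in controls and at 50.5, 63.9, 61.4 and 57.4 CPM in stress. Stress replicate 2 lay just above the lowest control. H2-Q7 had a log2 fold change of -0.27 (SE 0.11, 95% interval -0.52 to -0.03, edgeR adjusted p = 0.123).

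The genes of peptide supply had 95% intervals that held 0. Tap1 stood at 67.9, 72.3, 80.7 and 72.1 CPM in controls and at 70.9, 60.01, 71.8 and 61.3 CPM in stress, with a log2 fold change of -0.15 (95% interval -0.39 to 0.09, adjusted p = 0.374). Tap2, the other subunit of the transporter, stood at 40.9, 46.2, 46.5 and 41.0 CPM in controls and at 42.8, 42.2, 50.2 and 38.7 CPM in stress, with a log2 fold change of -0.01 (95% interval -0.24 to 0.22, adjusted p = 0.964). Tapbp stood at 86.5, 88.6, 102 and 91.2 CPM in controls and at 103, 89.4, 101 and 94.99 CPM in stress, with a log2 fold change of 0.08 (95% interval -0.16 to 0.31, adjusted p = 0.682). These adjusted p-values are from edgeR. In all 3 genes the groups overlapped, and the intervals bound a change on TMM-scaled libraries at 0.39 (log2) in either direction. On total counts alone the log2 fold changes of Tap1, Tap2 and Tapbp were -0.97, -0.85 and -0.74, so the bound holds for that scaling only.

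Nlrc5, the transactivator, stood at 52.5, 48.0, 52.9 and 57.0 CPM in control replicates 1 to 4 and at 44.9, 42.7, 25.1 and 41.0 CPM in stress replicates 1 to 4. All stress libraries lay below all controls, as in 9.87% of tested genes in this direction, and stress replicate 3 lay far below the rest. The means of Nlrc5 were 52.6 ± 3.69 and 38.4 ± 9.01 CPM, with a log2 fold change of -0.45 (SE 0.15, 95% interval -0.78 to -0.12, edgeR adjusted p = 0.0676). Without stress replicate 3, which had the highest haemoglobin share and the fewest counts outside haemoglobin, Nlrc5 had a log2 fold change of -0.28 (adjusted p = 0.0588). Over the same libraries the B cell marker sum was also lower in every stress library, and its part in the Nlrc5 value was not tested.

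Because scale moves these signs, the members were also read against the median gene. On total counts alone 6 members fell at an adjusted p below 0.05 (H2-K1, H2-Q7, Tap1, Tap2, Tapbp and Nlrc5), and on total counts outside haemoglobin 3 fell (H2-Q7, Tap1 and Nlrc5), while the median gene was itself lower by the amounts given above. Of all 11718 tested genes, 5811 fell on total counts alone and 3946 on total counts outside haemoglobin. The 6 and 3 members are to be read beside those shares. Relative to the median gene, B2m differed by 0.61 on the TMM scale, by 0.57 on total counts and by 0.59 on total counts outside haemoglobin (log2). Nlrc5 differed by -0.42, -0.36 and -0.40 on the same 3 scales, H2-D1 by 0.31, 0.30 and 0.31, and H2-K1 by 0.05, 0.01 and 0.03. H2-Q7 differed by -0.25 on each. Tap2 differed by 0.02, -0.03 and -0.01. The member nearest the median gene was Tap2 on the TMM scale and on total counts outside haemoglobin, and H2-K1 on total counts alone. A change of scale shifts all genes nearly alike, so close values on the 3 scales follow from how they are built.

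**Figure D3:**
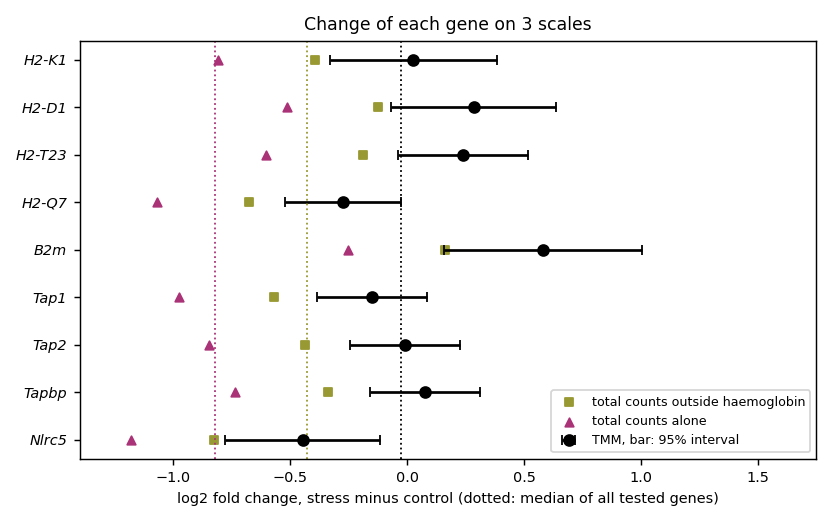
Log2 fold change (stress minus control) of each member on TMM-scaled libraries (black circles, bars are 95% intervals), on total counts outside haemoglobin (squares) and on total counts alone (triangles); dotted lines mark the median of all tested genes on each scale, at -0.02, -0.43 and -0.82. The scales shift all genes together, and B2m lies to the right and Nlrc5 to the left of the dotted line on each.

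Relative to B2m, 6 of the 8 other members were lower in every stress library. H2-K1 held 0.624 to 0.8499 counts per B2m count in controls and 0.473 to 0.528 in stress, a difference of -0.55 (log2, exact permutation p = 0.0286). Nlrc5 held 0.0693 to 0.0812 counts per B2m count in controls and 0.0194 to 0.0471 in stress, a difference of -1.06 (exact permutation p = 0.0286). H2-Q7 differed by -0.85, Tap1 by -0.72, Tap2 by -0.58 and Tapbp by -0.50, each without overlap between the groups and with the same p, 0.0286 (exact permutation, two-sided, n = 4 per group). H2-D1 differed by -0.29 (exact permutation p = 0.0857) and H2-T23 by -0.35 (exact permutation p = 0.0571), and their groups overlapped. The p-values are unadjusted over 12 ratios in all, and no p below 0.0286 was possible. The 8 ratios given here share B2m as their denominator. Of all tested genes, 48.4% had a lower ratio to B2m without overlap, and the 6 of 8 members are to be read beside that share.

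**Figure D4:**
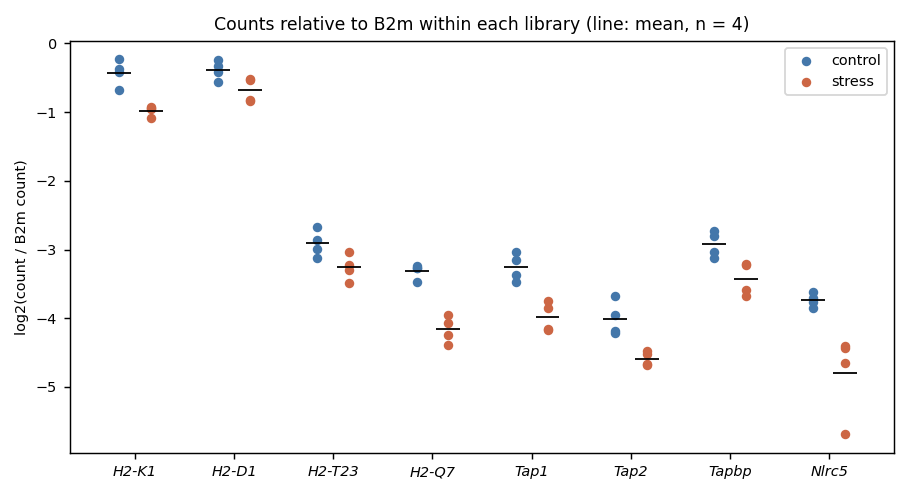
Count of each member divided by the B2m count of the same library, on a log2 axis, with a line at the group mean (n = 4 per group). The groups are apart in H2-K1, H2-Q7, Tap1, Tap2, Tapbp and Nlrc5 and overlap in H2-D1 and H2-T23.

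Against Ptprc, which encodes the leukocyte antigen CD45 and is not carried by mature red cells or platelets, B2m was higher in stress. The ratio of B2m to Ptprc ran from 1.30 to 1.76 in controls and from 1.96 to 3.69 in stress, a difference of 0.77 (log2, exact permutation p = 0.0286). Of all tested genes, 15.1% had a higher ratio to Ptprc without overlap. Ptprc itself stood at 448 ± 16.8 CPM in controls and 392 ± 42.9 CPM in stress (log2 fold change -0.19, edgeR adjusted p = 0.417), with overlap. B2m counts come from all blood RNA, so the ratio does not give B2m per leukocyte. The platelet marker sum was higher in every stress library, and its part in this ratio was not tested. For the summed heavy chains the ratio to Ptprc ran from 3.08 to 3.77 and from 3.32 to 5.12, a difference of 0.31 (exact permutation p = 0.0857) with overlap.

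The heavy chain genes are near copies of each other, so reads may be split between their rows. Of the 100-base words in GENCODE transcripts of each gene, 0.957% of those of H2-K1, 3.59% of H2-D1, 3.15% of H2-T23 and 11.98% of H2-Q7 also occurred in another gene, while none of those of B2m or Nlrc5 did. At 50 bases the shares were 9.63% for H2-K1, 12.8% for H2-D1 and 26.5% for H2-Q7, and the read length is not given in the sources used here. The rows of all class I heavy chains were therefore also summed, which removes the split among them. The sum was 1484 ± 99.3 CPM in controls and 1609 ± 127 CPM in stress, with overlap, and had a log2 fold change of 0.12 (SE 0.20, 95% interval -0.32 to 0.55, edgeR adjusted p = 0.737). On total counts alone the sum fell by 0.70 on the log2 scale (adjusted p = 0.0109). Per B2m count, the sum ran from 1.85 to 2.37 in controls and from 1.39 to 1.69 in stress (log2 difference -0.46, exact permutation p = 0.0286).

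Within the summed heavy chain counts, H2-K1 and H2-D1 made up most of the total. The share of H2-D1 was 36.0% ± 0.998 in controls and 40.5% ± 1.25 in stress, higher in every stress library, and that of H2-K1 was 35.1% ± 1.04 and 32.9% ± 2.02 with overlap. The share of H2-Q7 was lower in every stress library (4.74% ± 0.205 and 3.63% ± 0.402), as were those of its neighbours H2-Q4 (6.98% ± 0.395 and 5.27% ± 0.470) and H2-Q6 (3.29% ± 0.0990 and 2.32% ± 0.243). The share of H2-Q10 was higher in every stress library (0.608% ± 0.168 and 1.33% ± 0.214). H2-T23 made up 6.28% and 6.80% with overlap. Shares of one total are tied to each other, so they were given no test.

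**Figure D5:**
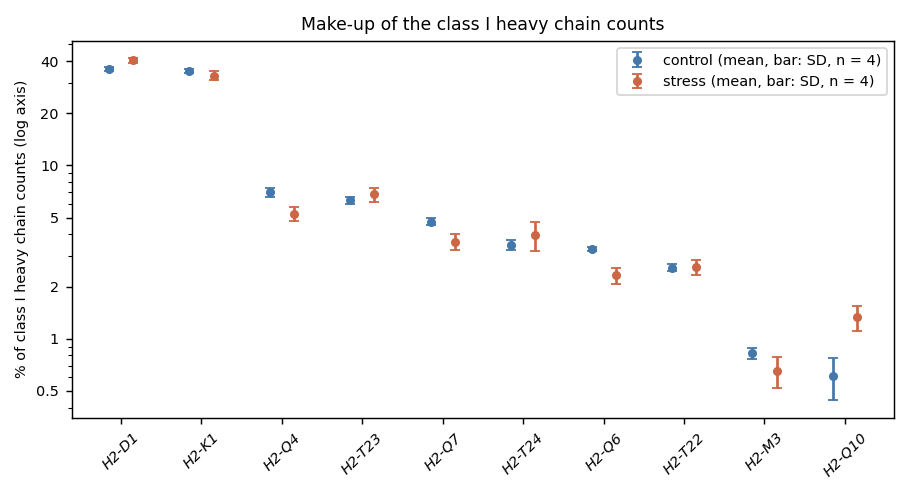
Share of each class I heavy chain gene in the summed heavy chain counts of a library, as mean and SD (n = 4 per group) on a log axis. H2-D1 and H2-Q10 took a larger share in stress, and H2-Q4, H2-Q7 and H2-Q6 a smaller one.

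The other class I heavy chains were mostly silent in blood. Of 27 listed, 21 were in the table, 11 had no count in any library and 6 were tested, of which 1 rose and 1 fell. Of all 11718 tested genes, 1223 rose and 432 fell. H2-Q10, a secreted class I molecule best known from liver, stood at 8.88, 9.29, 5.72 and 12.2 CPM in controls and at 17.1, 19.6, 25.0 and 23.7 CPM in stress. It rose by a log2 fold change of 1.25 (SE 0.20, edgeR adjusted p = 0.00257), past the study's thresholds, which 1.69% of all tested genes passed in this direction. Without stress replicate 3 its adjusted p was 0.0140, and on total counts alone its log2 fold change was 0.52 (adjusted p = 0.175). Of its 100-base words, 8.01% also occurred in another gene, and of its 50-base words 19.1%. A list of 10 hepatocyte markers, added after H2-Q10 had been seen, summed to 0.0387 to 0.189 CPM in controls and 0.0446 to 0.278 in stress, with 3 of them at 0 in all libraries and none past the filter. H2-Q6 fell, from 48.8 ± 4.01 to 37.05 ± 1.596 CPM (log2 fold change -0.40, edgeR adjusted p = 0.0191). Its adjusted p was 0.0758 without control replicate 3, 0.0551 without control replicate 4 and 0.0527 without stress replicate 2. H2-Q4 (log2 fold change -0.29, adjusted p = 0.108) and H2-T24 (0.29, adjusted p = 0.122) did not pass the edgeR test.

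Other steps of the route are to be read beside all 11718 tested genes. Of these, 1223 rose and 432 fell (14.1% in all, edgeR adjusted p below 0.05), and 31.2% had an unadjusted p below 0.05. Of 10 tested genes of peptide loading and trimming, 1 rose, Bcap31, an endoplasmic reticulum protein that takes part in the export of class I molecules (35.04 ± 2.06 to 52.8 ± 8.90 CPM, log2 fold change 0.59, edgeR adjusted p = 0.00742). The list had a median log2 fold change of -0.10. The peptidase Tpp2 had a log2 fold change of -0.20 (adjusted p = 0.182). The chaperone Calr, which holds heavy chains during loading, had a log2 fold change of 0.19 (adjusted p = 0.216). None of the 5 tested immunoproteasome genes, which cut proteins to class I peptides, was called at an edgeR adjusted p below 0.05 or at an unadjusted p below 0.05 (median log2 fold change 0.13). Of the activator and catalytic subunits, Psme1 stood at 38.2 ± 2.41 and 44.5 ± 7.63 CPM, and Psmb10 at 17.98 ± 2.65 and 21.2 ± 5.39 CPM. Psmb8 stood at 40.3 ± 2.89 and 44.0 ± 7.48 CPM, and Psmb9 at 17.8 ± 0.584 and 17.5 ± 1.44 CPM. None of 7 tested class I-like molecules, such as the MAIT cell ligand Mr1, was called either, nor had any an unadjusted p below 0.05 (median log2 fold change -0.23).

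Among 8 tested partners of Nlrc5 at class I promoters, 1 fell. That was Rfx5, the DNA-binding subunit of the RFX complex, from 17.9 ± 1.19 to 10.8 ± 2.83 CPM (log2 fold change -0.71, SE 0.16, edgeR adjusted p = 0.0107), with no overlap between the groups. Its lowest value, 6.91 CPM on 91 counts, was in stress replicate 3, the library in which Nlrc5 was also lowest. Ptprc was lowest in that library as well (350 CPM), so a lowest value there is not particular to Nlrc5 and Rfx5. The list had a median log2 fold change of -0.08, and its 1 fall of 8 is to be read beside 432 of all 11718 tested genes. The NF-Y subunit Nfyb had a log2 fold change of -0.21 (adjusted p = 0.236) and the CREB relative Atf1 one of 0.20 (adjusted p = 0.213). Of 14 tested genes of interferon signalling to class I, none was called (edgeR adjusted p below 0.05), beside 14.1% of all tested genes. At an unadjusted p below 0.05, 2 of the list were higher and 1 lower, beside 31.2% of all tested genes. The list had a median log2 fold change of 0.04. Irf8, a transcription factor of B cells and monocytes, had a log2 fold change of -0.31 (adjusted p = 0.0654), and the receptor kinase Jak2 one of 0.30 (adjusted p = 0.0778).

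In a list of receptors for class I and their relatives, 15 genes were tested and 2 rose, beside 1223 of all 11718 tested genes. Lilrb4a, an inhibitory receptor of myeloid cells whose known ligand is an integrin and not class I, went from 13.4 ± 2.38 to 30.5 ± 9.57 CPM (log2 fold change 1.19, SE 0.20, edgeR adjusted p = 0.00344), past the study's thresholds. Pirb, the paired immunoglobulin-like receptor B that binds class I molecules, went from 21.9 ± 2.87 to 35.9 ± 9.80 CPM (log2 fold change 0.72, adjusted p = 0.0187). Both lay higher in every stress library, as did the neutrophil and classical monocyte marker sums, whose part in these values was not tested. The list had a median log2 fold change of -0.21.

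Class II presentation genes, which load peptides from outside the cell, were the set compared with the class I genes. Of 10 tested, 4 fell, beside 0 of 9 class I members and 432 of all 11718 tested genes. The 0 of 9 is to be read beside that share. All 10 class II genes had a log2 fold change below 0 (median -0.32, beside 0.02 for the class I members and -0.02 for all tested genes). The class II transactivator Ciita, a relative of Nlrc5, fell from 75.0 ± 8.05 to 44.1 ± 10.13 CPM (log2 fold change -0.76, edgeR adjusted p = 0.00635). Its lowest value, 32.3 CPM, was in stress replicate 3, as was that of Ptprc (350 CPM). H2-Ob, H2-DMb2 and H2-Oa, which tune peptide exchange on class II molecules, had log2 fold changes of -0.49, -0.41 and -0.48 (adjusted p = 0.0196, 0.0212 and 0.0422). The class II chain genes H2-Aa, H2-Ab1 and H2-Eb1 and the invariant chain gene Cd74 were not called, and their groups overlapped (edgeR adjusted p = 0.212, 0.458, 0.229 and 0.674). The difference between the class I and class II genes was not itself tested. The B cell marker sum was lower over the same libraries, and its part in the class II values was not tested.

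Levels per length put the members in order. In controls B2m stood at 817 ± 89.1 CPM per kb of exon, followed by H2-D1 (207 ± 15.9), H2-K1 (178 ± 14.2), H2-T23 (32.2 ± 1.74), Tapbp (25.4 ± 1.94), H2-Q7 (16.5 ± 1.56), Tap1 (13.4 ± 0.976), Tap2 (11.5 ± 0.827) and Nlrc5 (6.19 ± 0.434). In stress the levels ran from 1222 ± 207 for B2m over 253 ± 19.8 for H2-D1 and 181 ± 22.01 for H2-K1 to 4.52 ± 1.06 for Nlrc5, in the same order. Neighbours whose means lay closer than the sum of their SDs were H2-D1 and H2-K1 in controls, and in stress H2-Q7 (13.7 ± 1.38) and Tap1 (12.1 ± 1.14), and Tap1 and Tap2 (11.5 ± 1.29). Lengths are exon unions, so the order of close neighbours rests on the annotation as well.

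The mean profile of the 9 members over the 8 libraries was flat. The tested genes nearest to it, by root mean square difference of centred log2 CPM, were Cnp (0.0359), Trim28 (0.0434), Eef2 (0.0451), Paics (0.0457) and Rac2 (0.0523), beside a median of 0.286 over all tested genes. Of the members themselves, Tapbp was nearest (0.0673) and Nlrc5 farthest (0.378), with B2m next (0.304). Both lay farther from the mean of the members than the median tested gene did.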

How the data were processed

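The authors deposited whole-number counts per gene symbol for the 8 libraries, with no normalization. The submitters' processing notes name HISAT2, featureCounts and mm10 without versions. The annotation, strand setting, read length and any filter are not given in the sources used here. The study gives 4 as the n of each group, and the labels do not tie each library to a separate mouse, so p-values measure the spread between libraries, which may be technical. No 2 libraries of a group agreed within sampling noise (chi-square of counts per degree of freedom 18.5 to 199).

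Symbols with 10 or more counts in 4 or more libraries were kept, libraries were scaled with TMM, and stress was compared with control by edgeR 4.0.16 (robust quasi-likelihood test, R 4.3.3) with Benjamini-Hochberg adjustment over 11718 genes. "Rose" and "fell" mean an adjusted p below 0.05; the study's thresholds add a 2-fold change in either direction (log2 beyond 1) and take 0.01. Ratios within a library were tested by two-sided exact permutation (scipy 1.17.1). Scripts were tested on simulated data. DESeq2 1.42.0, limma-voom (limma 3.58.1), other scalings, filters, a replicate block and leaving out each library were tried. Coordinates and lengths are from GENCODE M21, promoters from RefSeq.

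The members and gene lists were chosen with earlier results of these data known. All 9 members are named, and from each other list up to 4 tested genes in order of the smallest p, plus any past the study's thresholds. In the class II list, H2-Aa, H2-Ab1, H2-Eb1 and Cd74 are named as well. The 5 genes most like the members' mean profile are named by distance.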

Additional observations from a re-analysis of the deposited data

Results flagged for a closer look

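Dixon's test for 1 library apart from the other 3 was run on 48 groups of 4 values and marked 2, where chance marks about 1 in 20. In controls, Ptprc stood at 423 CPM in replicate 4, apart from the other 3 controls, which bears on the ratios of B2m and of the summed heavy chains to Ptprc. The control ratio of H2-Q7 to B2m was 0.0903 in replicate 1, below the other 3 controls, and it still lay above every stress library.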

How the results depend on the processing

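Total counts alone and total counts outside haemoglobin moved the signs. On these 2 scales the log2 fold changes were -0.52 and -0.12 for H2-D1, -0.81 and -0.40 for H2-K1, -0.60 and -0.19 for H2-T23, -0.74 and -0.34 for Tapbp, and -0.70 and -0.30 for the summed heavy chains; that of B2m was -0.25 on total counts alone. Members that fell numbered 6 and 3 there, beside 5811 and 3946 of all 11718 tested genes. With upper quartile scaling 1 member fell (Nlrc5), beside 552 of all tested genes. Past the study's thresholds there was 1 member on total counts alone. Members that rose numbered 2 with DESeq2, beside 1524 of 12532 genes, and 1 with limma-voom, beside 1356 of 11718. Over all genes, total counts alone gave 52 that rose, 5811 that fell and 14 higher and 729 lower past the study's thresholds, and total counts outside haemoglobin 551, 3946, 57 and 136. Past those thresholds DESeq2 gave 307 higher and 12 lower, and no count filter and upper quartile scaling each 4 lower. Tap2 had 0.00297 with DESeq2 size factors in edgeR. Leaving out 1 library gave 617 to 1425 genes that rose, 81 to 727 that fell, 76 to 340 higher and 1 to 8 lower past the study's thresholds, 0 to 1 members that rose, -0.032 to 0.088 for H2-K1 and -0.068 to 0.044 for Tap2; exact permutation of ratios cannot go below 0.0571 with 1 library fewer. Same-numbered libraries did not deviate together (r = 0.06, 0.00, -0.04 and -0.16). No pairing by number showed, though such correlations cannot exclude one. With the replicate block, 240 genes fell, 920 rose and 1 was lower past the study's thresholds, no member was called, H2-Q6 had an adjusted p of 0.0588, and the sign-flip test of the ratios cannot go below 0.125. Apart from the scalings, the cause of these moves was not tested. H2-Q10 rested on 327 to 480 counts in controls and 329 to 740 in stress.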
